A study of Mus musculus with 9 samples.

Results

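Genes of the inflammasome, pyroptosis and necroptosis were followed by RNA-seq in mouse cells sorted as retinal ganglion cells (RGCs), the neurons whose axons form the optic nerve. The 10 genes were chosen by name for their role in lytic cell death: Nlrp3, Pycard, Casp1, Casp4, Casp8, Gsdmd, Gsdme, Ripk1, Ripk3 and Mlkl. Of these, 6 were matched among the 15228 genes listed, 5 under the symbol given and Gsdme under its older symbol Dfna5. Casp1, Casp4, Ripk3 and Mlkl were not analysed here. The 9 libraries formed 3 groups of 3, all of wild-type (WT) C57BL/6J mice aged 6 to 8 weeks at surgery. The cells were sorted as CD90.2+ CD48neg CD15neg CD57neg. Ctrl libraries came from normal intact retinas. ONC libraries were taken on day 3 after optic nerve crush (ONC), with PBS injected into the eye. TPEN libraries were also taken on day 3 after ONC, and those eyes received 100 μM TPEN, a membrane-permeant chelator of zinc, right after the crush. No source used here says if each library was from its own mice, so p-values measure only the spread between these libraries, which may be technical.

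An inflammasome is a cytosolic complex in which a sensor such as NLRP3 recruits the adaptor ASC, encoded by Pycard, and through it the protease caspase-1. Caspase-1 matures interleukin-1β and cuts gasdermin D, whose free end forms pores in the plasma membrane (pyroptosis). Necroptosis is a second lytic route, in which RIPK1 engages RIPK3 and then the pore-forming effector MLKL, and caspase-8 holds this route in check. In the nervous system, inflammasome components are best known from microglia and macrophages, while RIPK1 is expressed in many cell types.

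The label of the cells was checked against marker genes. Of 12 RGC markers, 10 were listed, and their summed level in RPKM (reads scaled to exon length and library total) was 364.1 to 374.1 in Ctrl, 372.6 to 394.6 in ONC and 290.1 to 304.3 in TPEN, where it was below that of every other library. Nefl made up most of that sum, with means of 257.7 in Ctrl, 264.5 in ONC and 197.9 RPKM in TPEN. Exons of Nefm, another RGC marker on the other strand, cover 32.8% of the exon bases of Nefl, so the reads of both are uncertain. Of the 7 RGC markers tested, 2 had a positive log2 fold change in TPEN/ONC. Among them was Thy1, at 5.35 RPKM in ONC and 7.12 RPKM in TPEN. Pou4f1 was lower in ONC (0.183 RPKM) than in Ctrl (0.571 RPKM). The 8 rod markers summed to 16764 to 19877 RPKM, so rod transcripts were far more abundant than those of RGC markers in every library. Of 20 microglia and macrophage markers, 18 were listed, and their sum lay at 10.5 to 10.7 in Ctrl, at 81.6 to 86.1 in ONC and at 41.1 to 42.8 RPKM in TPEN. All 16 of those tested rose in ONC/Ctrl, 8 of the 16 fell in TPEN/ONC, and all 16 rose in TPEN/Ctrl (limma, adjusted p under 0.05 and at least 1.5-fold). Over all genes tested, 4.58% rose in ONC/Ctrl, 1.21% fell in TPEN/ONC and 3.45% rose in TPEN/Ctrl. Cd14, a microglia and macrophage marker, had 0 reads in Ctrl replicate 3, and no other listed marker was at 0 in any library. None of 10 neutrophil and 7 T cell markers was listed. The sums of Müller glia markers were 504.9 to 523.6 in Ctrl, 573.0 to 584.7 in ONC and 442.2 to 453.3 in TPEN, in RPKM. These 8 markers did not move together, and 4 had a positive log2 fold change in ONC/Ctrl. Apoe (means of 171.7 in Ctrl and 268.4 RPKM in ONC) and Vim (18.97 and 57.09) were called upregulated. Glul (172.7 and 116.1) and Rlbp1 (125.3 and 110.8) had lower means in ONC, by less than 1.5-fold on the log2 scale. In such bulk libraries, fewer cells of a type and less RNA per cell cannot be told apart. The libraries held 19946993 to 23109754 reads, and a gene with no read could hold up to 3 reads, or 0.130 to 0.150 RPM (reads scaled to the library total only), which covers counting error only.

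**Figure D1:**
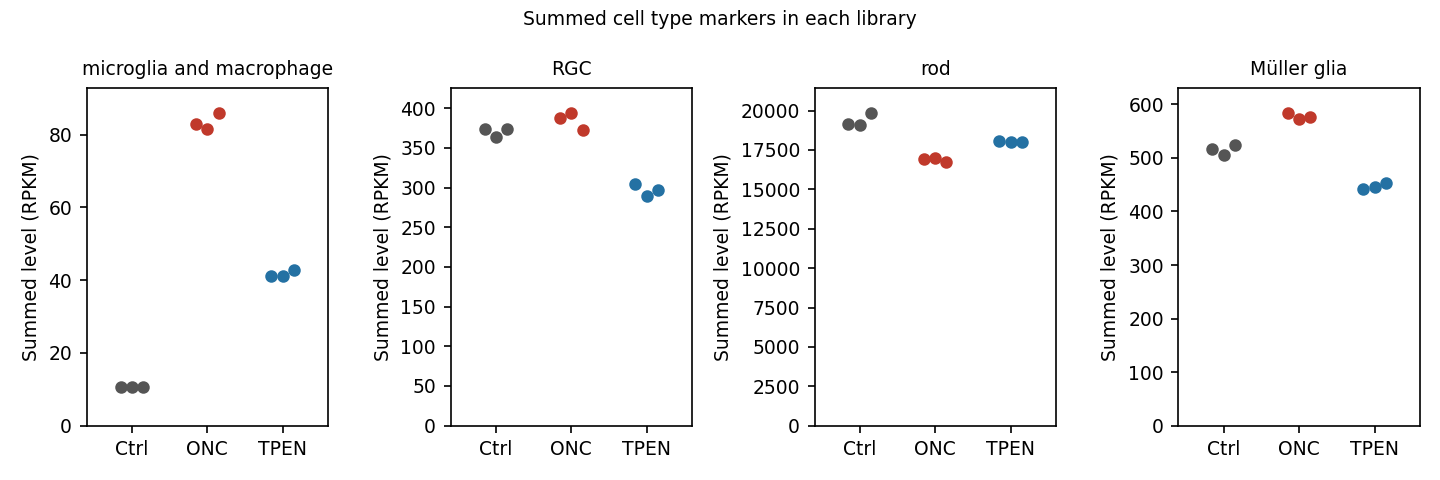
Summed RPKM of cell type markers (vertical axes, from 0) in each of the 3 libraries of Ctrl, ONC and TPEN, with 1 point per library. Microglia and macrophage markers spanned 10.5 to 10.7 in Ctrl, 81.6 to 86.1 in ONC and 41.1 to 42.8 in TPEN, without overlap between the groups.

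The table lists genes above 1 RPM in at least 2 libraries. No Ctrl library was above 1 RPM for Nlrp3, Pycard, Casp8 or Gsdmd, so these 4 genes entered the table only through the injured groups, where they were high. Pycard and Gsdmd were also above 1 RPM in no TPEN library and entered it through ONC alone. The direction of the 4 genes in ONC/Ctrl, and that of Pycard and Gsdmd in TPEN/ONC, was therefore partly set by the listing itself, and the same holds for the filter on low genes, a mean of 0.5 RPKM or more, which Casp8 passed only through ONC and TPEN. Among the 663 listed genes with no Ctrl library above 1 RPM, 66.2% were higher in every ONC library than in any Ctrl library, against 21.3% of all listed genes. Among the 143 genes listed through ONC alone, 83.9% were higher in every ONC library than in any Ctrl library, and 79% were lower in every TPEN library than in any ONC library. Of the 18 listed microglia and macrophage markers, 11 had no Ctrl library above 1 RPM, so the listing also favoured their rise in ONC/Ctrl. Of the members, only Casp8 and Ripk1 passed the filter. Nlrp3, Pycard, Gsdmd and Gsdme were below it, and their values come from a fit of all 15228 listed genes and from exact permutation tests.

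The sequences before the transcription start are shown for 3 members that rose after ONC, to give the letters behind the motif search described here. Promoter sequences of RefSeq (GRCm38.p6) were found for 5 of the 6 listed members (all but Gsdmd), and 250 bases before the start were searched on both strands for 6 motifs. Capitals mark a match. The stretches are Nlrp3 on chr11:59541319-59541567 (plus strand), Pycard on chr7:127993868-127994117 (minus strand) and, for the second start of Ripk1, chr13:34002795-34002873 (plus strand), where bases within exons were left out.
Nlrp3: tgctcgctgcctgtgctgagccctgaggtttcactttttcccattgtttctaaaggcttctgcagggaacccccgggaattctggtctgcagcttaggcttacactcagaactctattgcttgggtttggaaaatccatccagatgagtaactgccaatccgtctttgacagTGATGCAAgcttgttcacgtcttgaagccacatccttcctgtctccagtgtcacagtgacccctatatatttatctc
Pycard: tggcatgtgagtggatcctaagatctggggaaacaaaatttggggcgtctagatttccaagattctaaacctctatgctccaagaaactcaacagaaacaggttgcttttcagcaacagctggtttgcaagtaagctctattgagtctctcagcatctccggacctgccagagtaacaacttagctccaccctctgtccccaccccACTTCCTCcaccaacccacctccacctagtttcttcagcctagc
Ripk1: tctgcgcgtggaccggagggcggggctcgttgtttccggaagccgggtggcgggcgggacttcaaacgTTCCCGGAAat
The Nlrp3 window held a match to the C/EBP-ATF response element (CARE, TGATGNAA), starting 78 bases before the start. Such a match was present in 3.45% of the 32851 promoters. The Pycard window held the PU.1 motif (GAGGAAGT) on the opposite strand, 44 bases before the start, and 2.44% of promoters held this motif. PU.1 is a transcription factor of myeloid cells. The second window of Ripk1 held the STAT motif GAS (TTCNNNGAA) at 108 and at 11 bases before the start, of which only the latter lies in the stretch printed, and 7.02% of promoters held GAS. The windows of Casp8 and Gsdme and the other windows of Nlrp3 and Ripk1 held none of these motifs, nor the interferon-stimulated response element (ISRE, GAAA, any 2 bases and GAAA, in 2.98% of promoters), the NF-κB motif (GGG, any 2 bases and TTTCC, 1.41%) or the AP-1 motif (TGANTCA, 6.75%). The GAS and AP-1 letters read the same on both strands, apart from their free positions. A match is a description of the letters and not a site of binding.

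Transcripts of the sensor, the adaptor and the pore former of the NLRP3 pathway had few reads in Ctrl and rose after ONC. Those of the adaptor and the pore former, both listed through ONC alone, fell with TPEN, a direction that the listing favoured, and the difference of the sensor did not pass the test. Nlrp3, the sensor (chromosome 11, 59541568 to 59566956, plus strand, GRCm38), had 11, 8 and 8 reads in the 3 Ctrl libraries, 45, 64 and 28 reads in ONC and 18, 26 and 20 reads in TPEN. The lowest ONC library was above the highest TPEN library, and all TPEN libraries were above all Ctrl libraries. In RPKM, the levels were 0.102 ± 0.0180 in Ctrl, 0.490 ± 0.193 in ONC and 0.253 ± 0.0336 in TPEN (SD, n = 3 libraries each). The ONC libraries spread the most, from 0.300 to 0.687 RPKM, and ONC replicate 3 lay only slightly above the highest TPEN library at 0.288 RPKM. The ratio of means was 4.83 for ONC over Ctrl and 1.94 for ONC over TPEN. The 3 groups differed with p = 0.00357 by exact permutation, the smallest that 280 arrangements of 9 libraries allow. Nlrp3 was listed only through ONC and TPEN, and the permutation test does not allow for this. The same limit holds for the permutation p of Pycard and Gsdmd below.

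On the log2(RPKM + 0.1) scale, where low genes change less than their ratio of means says, Nlrp3 rose by 1.50 in ONC/Ctrl (standard error, SE, 0.23; adjusted p by limma, 0.00138). Its difference in TPEN/ONC was -0.69, with a 95% interval of -1.22 to -0.17, and did not pass the threshold (limma adjusted p = 0.110). It passed without ONC replicate 3, the lowest of that group (-0.95, limma adjusted p = 0.0332).

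Pycard (chromosome 7, 127989708 to 127993867, minus strand) encodes the adaptor ASC. Its reads were 4, 6 and 8 in Ctrl, 33, 28 and 28 in ONC and 14, 14 and 11 in TPEN. The 3 groups did not overlap on the RPKM scale, where the means were 0.0734 ± 0.0293 in Ctrl, 0.340 ± 0.0329 in ONC and 0.165 ± 0.0196 in TPEN (SD, n = 3; exact permutation p = 0.00357). The ratio of means was 4.63 for ONC over Ctrl and 2.06 for ONC over TPEN. Pycard rose by 1.35 on the log2(RPKM + 0.1) scale in ONC/Ctrl (SE 0.17; adjusted p by limma, 0.000360) and fell by 0.73 in TPEN/ONC (SE 0.17; adjusted p by limma, 0.0294). The call in TPEN/ONC was lost without any one of the 6 ONC and TPEN libraries (adjusted p from 0.0583 to 0.103) and with voom on the whole reads (-1.01, adjusted p = 0.0665). Exons of the listed gene Gm45205, on the other strand, cover 12.8% of the exon bases of Pycard, and whether counting used the strand is not given in the sources used here, so its reads are uncertain.

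Gsdmd (chromosome 15, 75862339 to 75867404, plus strand) encodes gasdermin D, the pore former cut by inflammatory caspases. It had 4, 4 and 6 reads in Ctrl, 31, 25 and 28 reads in ONC and 10, 9 and 8 reads in TPEN. All ONC libraries were well above the others, and the TPEN libraries, at 0.226 to 0.282 RPKM, lay just above the Ctrl libraries at 0.0975 to 0.168 RPKM. The means were 0.122 ± 0.0400 (Ctrl), 0.686 ± 0.0732 (ONC) and 0.245 ± 0.0316 RPKM (TPEN; SD, n = 3; exact permutation p = 0.00357). ONC was 5.62 times Ctrl and 2.80 times TPEN by the ratio of means. On the log2(RPKM + 0.1) scale, Gsdmd rose by 1.83 in ONC/Ctrl (SE 0.17; adjusted p by limma, 5.3e-05) and fell by 1.19 in TPEN/ONC (SE 0.17; adjusted p by limma, 0.00315). Its adjusted p in TPEN/ONC stayed between 0.00243 and 0.0177 when any library was left out, and was 0.0140 with voom on the whole reads.

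Gsdme (listed as Dfna5, chromosome 6, 50188888 to 50263862, minus strand) encodes gasdermin E, another pore former of this family. Its reads were 99, 141 and 97 in Ctrl, 151, 133 and 107 in ONC and 117, 140 and 141 in TPEN. The groups overlapped in each comparison, and their means were 0.402 ± 0.0689, 0.445 ± 0.0754 and 0.503 ± 0.0482 RPKM (SD, n = 3; exact permutation p = 0.271). On the log2(RPKM + 0.1) scale, the difference was 0.12 in ONC/Ctrl (95% interval -0.25 to 0.49, limma adjusted p = 0.676), and its sign turned to -0.12 with quantile normalization. In TPEN/ONC it was 0.15 (95% interval -0.22 to 0.52, limma adjusted p = 0.651). Changes of up to these bounds are not excluded by these libraries.

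Whether the 2 gasdermins moved apart was tested on the log2 ratio of Gsdmd to Gsdme within each library, on the same scale. The ratio was -1.16, -1.55 and -0.84 in Ctrl, 0.48, 0.36 and 0.76 in ONC and -0.55, -0.86 and -1.01 in TPEN. Per exon length, Gsdmd was thus above Gsdme in every ONC library and below it in every Ctrl and TPEN library. The exon length used was 1776 bases for Gsdmd and 12742 for Gsdme, and in reads Gsdme was above Gsdmd in every library. The group means were -1.18 ± 0.36, 0.53 ± 0.20 and -0.81 ± 0.23 (SD, n = 3), with p = 0.0107 by exact permutation of the 3 groups. The Ctrl and TPEN ratios overlapped. Gsdmd was listed through ONC alone, while Gsdme was above 1 RPM in every library. The listing thus favoured a ratio that was high in ONC, and the permutation test does not allow for this.

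**Figure D2:**
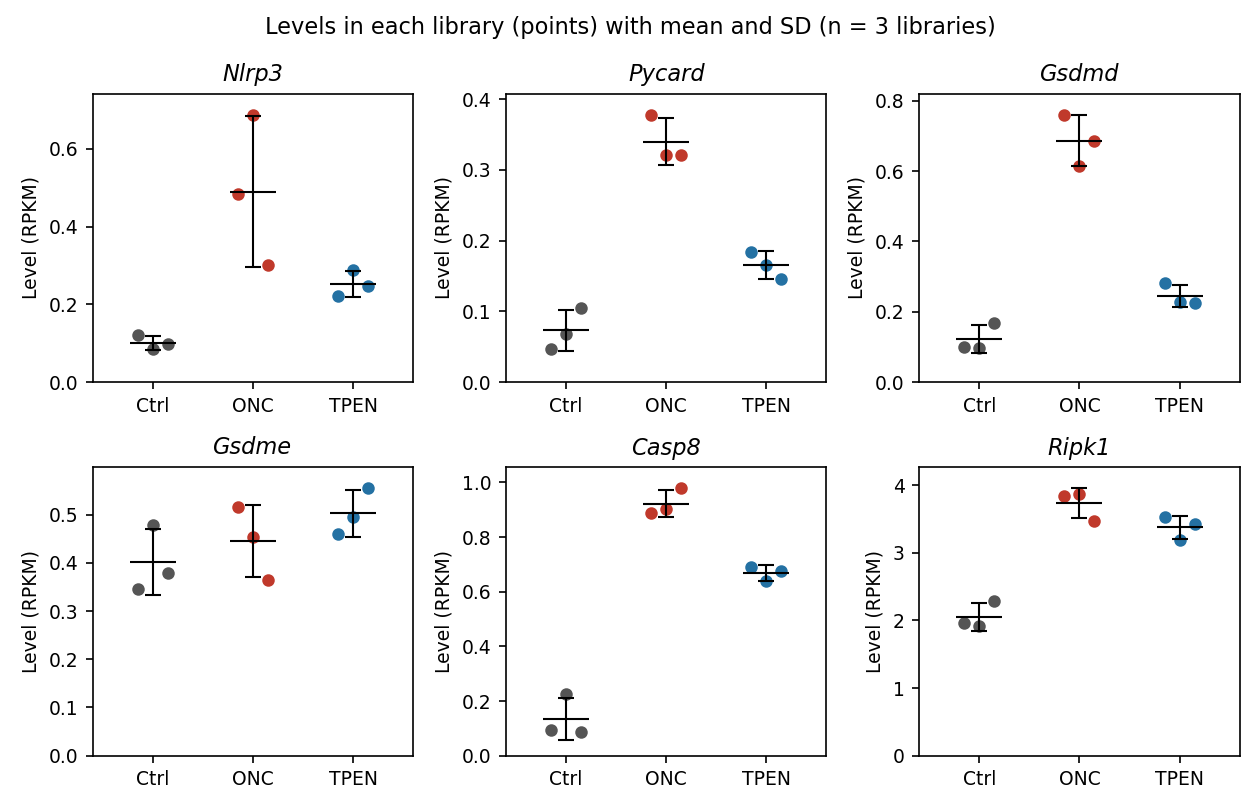
Levels of the 6 listed members in RPKM (vertical axes, from 0, 1 scale per gene) in each library of Ctrl, ONC and TPEN, where points are libraries and bars the mean and SD of 3 libraries. Every ONC library lay above every Ctrl library for all members but Gsdme, and for these 5 the ratio of the ONC mean to the TPEN mean ranged from 1.11 (Ripk1) to 2.80 (Gsdmd).

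Transcripts of caspase-8 and RIPK1, the branch point between apoptosis and necroptosis, also rose after ONC, but no fall with TPEN passed the test. Casp8 (chromosome 1, 58795374 to 58847503, plus strand) had 6, 15 and 5 reads in Ctrl, 59, 60 and 65 reads in ONC and 40, 41 and 39 reads in TPEN. The levels were 0.134 ± 0.0780 (Ctrl), 0.923 ± 0.0486 (ONC) and 0.669 ± 0.0277 RPKM (TPEN; SD, n = 3), and the 3 groups did not overlap. The ratio of means of ONC over Ctrl was 6.87, with Ctrl replicate 2 the highest of its group. Casp8 was listed, and passed the filter, only through ONC and TPEN, which favoured its rise in ONC/Ctrl. Casp8 rose by 2.17 on the log2(RPKM + 0.1) scale in ONC/Ctrl (SE 0.22; adjusted p by limma, 9.2e-05). In TPEN/ONC, the difference was -0.41 with a 95% interval of -0.90 to 0.07 (limma adjusted p = 0.308), although all 3 TPEN libraries were lower than any ONC library.

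Ripk1 (chromosome 13, 34002363 to 34035170, plus strand) encodes the kinase that relays signals of the tumour necrosis factor (TNF) receptor to survival, apoptosis or necroptosis. It was the most abundant of the 6 listed members, with 269, 271 and 282 reads in Ctrl, 542, 546 and 490 reads in ONC and 432, 434 and 419 reads in TPEN. The levels were 2.05 ± 0.206 (Ctrl), 3.73 ± 0.221 (ONC) and 3.38 ± 0.174 RPKM (TPEN; SD, n = 3). Every ONC and TPEN library was above every Ctrl library, and the ONC and TPEN libraries overlapped. Ripk1 rose by 0.83 on the log2(RPKM + 0.1) scale in ONC/Ctrl (SE 0.092; adjusted p by limma, 0.000183). Its difference in TPEN/ONC was -0.14 with a 95% interval of -0.35 to 0.07 (limma adjusted p = 0.427). Exons of Gm17084 on the same strand cover 34.3% of the exon bases of Ripk1, and those of Serpinb6a on the other strand 3.93%, so part of its reads is uncertain.

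By mean level over the 9 libraries, per exon length, Ripk1 ranked 8680 of 15228 genes, followed by Casp8 (13307), Gsdme (13759), Gsdmd (14143), Nlrp3 (14468) and Pycard (14840). In ONC, Casp8 was above Gsdmd in every library, while Gsdmd and Nlrp3 overlapped, as did Nlrp3 and Pycard. In Ctrl the order was different, and Gsdme was above Casp8, Gsdmd, Nlrp3 and Pycard in every library. By summed reads, without exon length, the order also differed. In ONC, Gsdme had 391 reads, Casp8 184, Nlrp3 137, Pycard 89 and Gsdmd 84.

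In the fit above the filter, 2 of 2 members tested were called upregulated in ONC/Ctrl, where 4.58% of all genes tested were. Casp8 passed the filter only through ONC and TPEN, so its rise was favoured and 4.58% is no matched share for it. In the fit of all listed genes, 5 of 6 members were upregulated, against 6.19% of all listed genes and 55.4% of the listed genes with no Ctrl library above 1 RPM (75.5% of those listed through ONC alone). The median log2 fold change of the 6 members was 1.43, and that of all listed genes 0.02. With voom on the whole reads, the same number were upregulated, against 6.59%. The ONC libraries were above all Ctrl libraries for 5 of the 6 members, against 21.3% of all listed genes and 66.2% of those with no Ctrl library above 1 RPM, a class that holds 4 of these 5. Because the listing favoured such genes, Ripk1 and Gsdme, which were above 1 RPM in every Ctrl library, are the members whose direction it did not bear on, and Ripk1 rose whereas Gsdme did not pass the test.

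In TPEN/ONC, 0 of 2 members above the filter were downregulated with limma, where 1.21% of genes tested were, and neither had an unadjusted p under 0.05. In the fit of all listed genes, 2 of 6 members, Gsdmd and Pycard, were downregulated, against 1.85% of all listed genes and 25% of those with no Ctrl library above 1 RPM. Both were listed through ONC alone, and 53.1% of the 143 genes listed in that way were downregulated, so these calls are no result particular to the members. With voom on the whole reads, 1 of 6 was downregulated (Gsdmd), where 2.36% of listed genes were. All TPEN libraries were below all ONC libraries for 4 of the 6 members, as for 15.6% of all listed genes and 40.9% of those with no Ctrl library above 1 RPM, and for 79% of those listed through ONC alone. The median log2 fold change was -0.55 over the 6 members and -0.01 over all listed genes. ONC/Ctrl and TPEN/ONC use the same ONC libraries, so high values in ONC by chance would enter both.

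In TPEN/Ctrl, Casp8 was still 1.76 higher on the log2(RPKM + 0.1) scale (SE 0.22; adjusted p by limma, 0.000562) and Ripk1 0.70 higher (SE 0.092; adjusted p by limma, 0.000898). The listing and the filter favoured this direction for Casp8, but not for Ripk1. Of the genes above the filter, 3.45% were upregulated in this comparison. In the fit of all listed genes, where 4.5% were upregulated, Nlrp3 was 0.81 higher (limma adjusted p = 0.0485), Gsdmd 0.65 (0.0341) and Pycard 0.62 (0.0385). All TPEN libraries were above all Ctrl libraries for 5 of the 6 members, as for 19% of listed genes and 55.5% of those with no Ctrl library above 1 RPM. With voom on the whole reads, which called 5.13% of genes, these 3 calls were lost, with adjusted p of 0.0547 for Nlrp3, 0.236 for Gsdmd and 0.10 for Pycard. They were also lost in 6 to 8 of the 9 fits that left out a library.

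As a share of the rise in mean RPKM from Ctrl to ONC, the TPEN libraries kept 21.8% ± 5.61 for Gsdmd, 34.4% ± 7.36 for Pycard, 38.9% ± 8.64 for Nlrp3, 67.7% ± 3.51 for Casp8 and 78.9% ± 10.4 for Ripk1. The SD is that of the 3 TPEN libraries and leaves out the error of the Ctrl and ONC means. The shares of Nlrp3, Pycard and Gsdmd were thus below those of Casp8 and Ripk1, and this order was not tested. Pycard and Gsdmd were listed through ONC alone, which favoured a low share. Casp8 and Ripk1 were above 1 RPM in every TPEN library. The summed microglia and macrophage markers moved in the same direction as the members named above in both comparisons. So did the astrocyte sum, at 47.0 to 48.0 RPKM in Ctrl, 69.2 to 70.3 in ONC and 59.2 to 60.7 in TPEN. The Müller glia sum also rose and then fell, to below Ctrl, but only 4 of its 8 markers had a positive log2 fold change in ONC/Ctrl. The rod and endothelial sums did not fall with TPEN. The part of these markers in the result was not tested.

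**Figure D3:**
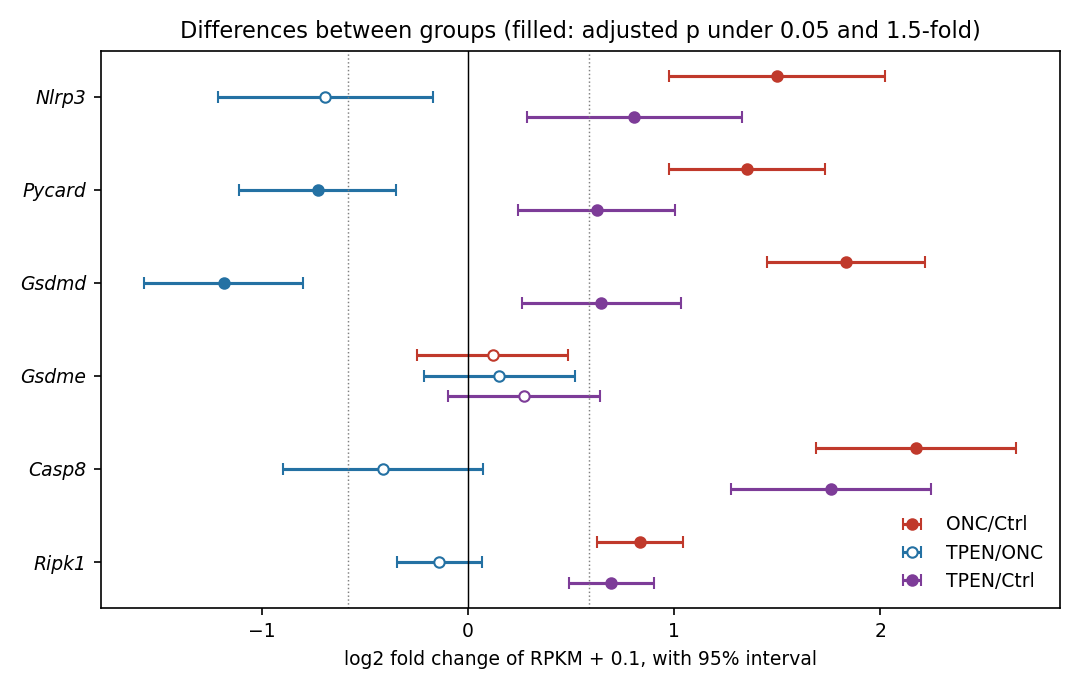
Differences between groups on the log2(RPKM + 0.1) scale (horizontal axis) for the 6 listed members, with 95% intervals from limma; Casp8 and Ripk1 are from the fit of genes above the filter and the others from that of all listed genes. Filled points pass both thresholds (adjusted p of 0.05 and 1.5-fold, dotted lines), as 5 members do in ONC/Ctrl and Gsdmd and Pycard in TPEN/ONC.

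The genes around these members were followed in lists written for their pathways, and the limit of the listing holds for them too. Of those named here as called in ONC/Ctrl, only Card9, Il1a and Ninj1 were above 1 RPM in a Ctrl library, and Naip2, Naip5, Aim2, Mefv, Il1b, Il1rn, Zbp1 and Birc3 were listed through ONC alone, which favours a rise in ONC/Ctrl and a fall in TPEN/ONC. Over all genes above the filter, 4.58% rose in ONC/Ctrl and 1.21% fell in TPEN/ONC. Of 21 other inflammasome sensors and partners, 13 were listed and 4 passed the filter. Of these 4, Card9, an adaptor of fungal sensing, rose in ONC/Ctrl (log2 fold change 1.06, SE 0.24, limma adjusted p = 0.0138). Its exons overlap those of Gm13562, so its reads are uncertain. In the fit of all listed genes, 7 of the 13 rose in ONC/Ctrl, 3 fell in TPEN/ONC and 4 rose in TPEN/Ctrl. Over all listed genes, these shares were 6.19%, 1.85% and 4.5%. Of those with no Ctrl library above 1 RPM, 55.4% rose in ONC/Ctrl and 25% fell in TPEN/ONC. Nlrc5, a regulator of MHC class I genes, was at 0.0282 ± 0.0215 (Ctrl), 0.625 ± 0.0536 (ONC) and 0.183 ± 0.0660 RPKM (TPEN; SD, n = 3), and it rose in ONC/Ctrl and fell in TPEN/ONC (limma adjusted p = 2.3e-05 and 0.00410). Mefv, which encodes pyrin, had 0 reads in every Ctrl library, 0.349 ± 0.0862 RPKM in ONC and 0.0285 ± 0.0275 RPKM in TPEN, and was called in both comparisons (limma adjusted p = 7.0e-05 and 0.000962), directions that its listing through ONC alone favoured. Aim2, a sensor of cytosolic DNA, rose in ONC/Ctrl (1.71, limma adjusted p = 0.00199), and its difference in TPEN/ONC was -0.85 (0.108). Naip5 and Naip2 rose by 1.68 and 1.62, and Naip5 fell by 0.87 in TPEN/ONC (limma adjusted p = 0.0301). Naip6 rose by 1.13 in ONC/Ctrl, and its difference in TPEN/ONC was -0.07 (limma adjusted p = 0.894). The Naip genes are near copies of each other, so their reads are uncertain. Nek7, the partner that NLRP3 needs, was at 7.31 ± 0.0123 RPKM in Ctrl and 7.48 ± 0.218 RPKM in ONC (log2 fold change 0.03, limma adjusted p = 0.689).

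Of 12 genes of the interleukin-1 family and its receptors, 5 passed the filter. Of all genes above it, 4.58% rose in ONC/Ctrl and 1.21% fell in TPEN/ONC. Among the 5, 2 rose in ONC/Ctrl and fell in TPEN/ONC. They were Il1b, the substrate of caspase-1, which had 0.134 ± 0.0610 (Ctrl), 2.00 ± 0.0948 (ONC) and 0.261 ± 0.0234 RPKM (TPEN; SD, n = 3), and Il1a, with log2 fold changes of 1.96 and -1.09 (limma adjusted p = 0.000353 and 0.0246). Exons of Gm14023 overlap those of Il1a, whose reads are uncertain. Il1b was listed, and passed the filter, through ONC alone, which favoured both of its directions. Il18, the other substrate of caspase-1, was at 1.34 ± 0.417 (Ctrl), 1.45 ± 0.200 (ONC) and 1.13 ± 0.187 RPKM (TPEN; SD, n = 3), and passed no test. Il1rn, the antagonist of the interleukin-1 receptor, was below the filter at 0.00521 ± 0.00903 (Ctrl), 1.36 ± 0.157 (ONC) and 0.0235 ± 0.0110 RPKM (TPEN). It too was called in both comparisons (limma adjusted p = 2.1e-07 and 1.5e-06) and was listed through ONC alone. Ninj1, which ruptures the membrane after pores have formed, rose in ONC/Ctrl (1.46, SE 0.18, limma adjusted p = 0.000371), and its difference in TPEN/ONC was -0.57 (limma adjusted p = 0.0923). It was the only 1 of 10 genes on its list with a row.

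Of 15 death receptor and adaptor genes, 5 passed the filter, and 1, Tnf, the ligand upstream of RIPK1, rose in ONC/Ctrl (2.47, limma adjusted p = 0.00569). In the fit of all listed genes, 4 of 9 rose in ONC/Ctrl and 2 fell in TPEN/ONC, against 6.19% and 1.85% of all listed genes. None of these 4 was above 1 RPM in a Ctrl library. Of the listed genes without such a library, 55.4% rose in ONC/Ctrl and 25% fell in TPEN/ONC. Both receptors of TNF were among the 4 that rose. Tnfrsf1a, the receptor that recruits RIPK1, was at 0.109 ± 0.0718 (Ctrl), 0.627 ± 0.141 (ONC) and 0.692 ± 0.0731 RPKM (TPEN; SD, n = 3). It rose by 1.83 in ONC/Ctrl (limma adjusted p = 0.000444), and its difference in TPEN/ONC was 0.14 (0.794). Tnfrsf1b rose by 2.41 and fell by 1.78 in TPEN/ONC (limma adjusted p = 0.00772). Zbp1, a sensor of nucleic acids that engages RIPK3, rose by 1.62 and fell by 1.14 (limma adjusted p = 0.0142). Fadd, the adaptor between the receptors and caspase-8, was at 1.86 ± 0.237 RPKM in Ctrl and 1.68 ± 0.223 RPKM in ONC, and passed no test.

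Of 21 genes that brake necroptosis or edit ubiquitin chains on RIPK1, 20 passed the filter, and 0 were called in any comparison with limma at the 1.5-fold threshold. At an adjusted p under 0.05 in ONC/Ctrl, some were higher and some lower by less than that. Tnip1, a partner of A20, was higher by 0.49 on the log2 scale (limma adjusted p = 0.00111), Rnf31, whose exons overlap those of Irf9, by 0.38 (0.00164), Mapkapk2 by 0.37 (0.00885) and Otulin by 0.27 (0.0312), and Tnip1 was lower in TPEN/ONC (-0.33, 0.0244). Chuk was lower in ONC/Ctrl (-0.27, 0.00624). Xiap, a caspase inhibitor, was at 92.9 ± 2.14 RPKM in Ctrl and 68.6 ± 0.283 RPKM in ONC, and Tnfaip3, which encodes the ubiquitin editor A20, at 67.3 ± 1.39 RPKM and 49.7 ± 1.03 RPKM (SD, n = 3). In ONC/Ctrl both had a log2 fold change of -0.44, against 0.18 in TPEN/ONC, and limma gave adjusted p of 2.9e-06 and 0.00355 for Xiap and 1.2e-05 and 0.010 for Tnfaip3. Birc3, the gene of cIAP2, was below the filter, where it rose by 1.76 in ONC/Ctrl and fell by 1.46 in TPEN/ONC (limma adjusted p = 0.000281 and 0.00329). Cflar, which encodes the caspase-8 partner c-FLIP, was at 3.44 ± 0.144 RPKM in Ctrl and 3.49 ± 0.105 RPKM in ONC (log2 fold change 0.02, limma adjusted p = 0.889). Of 9 genes of the apoptotic caspases and the apoptosome, 8 passed the filter and 0 were called in any comparison with limma.

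**Figure D4:**
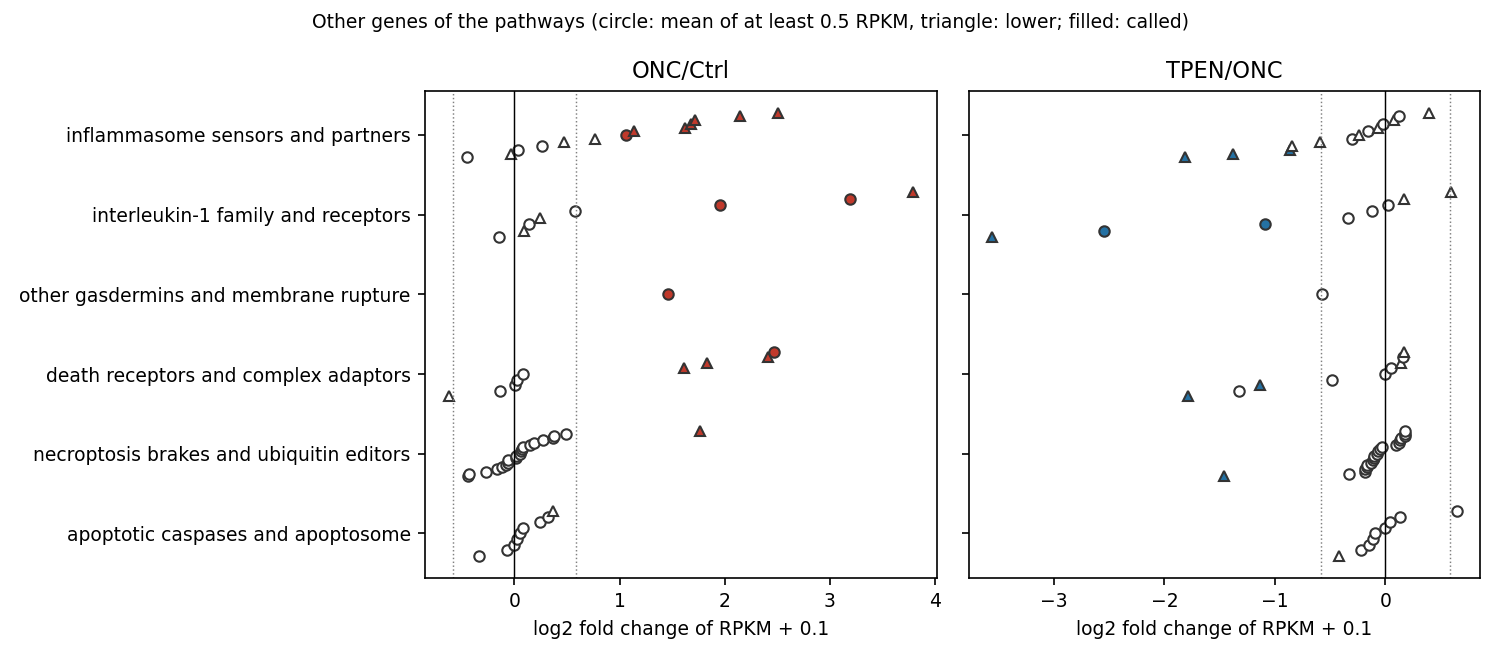
Differences on the log2(RPKM + 0.1) scale (horizontal axes) of the other listed genes of the 6 pathway lists in ONC/Ctrl and TPEN/ONC, with 1 mark per gene. Circles are genes above the filter and triangles lower ones; filled marks pass both thresholds, as 0 of 8 apoptotic genes and 0 of 20 brakes above the filter do.

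For Casp8 and Ripk1, the members called in ONC/Ctrl above the filter, the genes with the most similar course over the 9 libraries were found by the root mean square difference of their log2 values, each taken from its own Ctrl mean. For Casp8 these were Cebpd (0.214), Trem2 (0.229) and Nupr1 (0.254), where the median gene was at 1.63. Trem2 belongs to the microglia and macrophage markers, and its levels of 0.108, 0.880 and 0.565 RPKM in Ctrl, ONC and TPEN were close to those of Casp8. For Ripk1 they included Dock1 (0.0511) and Thg1l (0.0891), where the median gene was at 0.641. Genes of a library share its depth and its mixture of cells, and the likeness is a description.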

How the data were processed

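RNA of cells sorted by flow cytometry as CD90.2+ CD48neg CD15neg CD57neg was sequenced in 9 libraries, made with a stranded kit whose adapters carry molecular identifiers. The submitters' processing notes name Trimmomatic 0.36 and the builds GRCm38 and mm10, and the authors mapped the reads with STAR. The counting program, the annotation and any collapsing of molecular identifiers are not given in the sources used here. The deposited RPKM values are reads divided by exon length and library total, a calculation of the authors. The deposited log2 fold changes, p-values and FDR of the authors' comparisons were not used.

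RPKM multiplied by exon length gave whole reads for 100% of values (within 0.01). For the 13566 genes at a mean of 0.5 RPKM or more, log2(RPKM + 0.1) was fitted with limma 3.58.1 (trend of the variance on the mean, 1 coefficient per group, Benjamini-Hochberg adjustment over all genes tested) in R 4.3.3. Genes were called at adjusted p below 0.05 with a change of 1.5-fold or more. Members below the filter were tested by exact permutation of the 3 groups over 280 arrangements, and fitted with all 15228 listed genes. The fit was tested on simulated data. Of 4 planned ratios of members, only that of Gsdmd to Gsdme could be made, so its p was not adjusted.

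All members are named, as are genes called on the pathway lists in ONC/Ctrl or TPEN/ONC (up to 6 a list by size of change) and the 3 genes most like each member called above the filter, of which 1 is not reported here. Card9, Nek7, Il18, Fadd, Xiap, Tnfaip3, Tnip1, Rnf31, Mapkapk2, Otulin, Chuk, Cflar and Cd14 were named after their values were seen. Members and lists were chosen with earlier results of these data known. Alternatives were quantile normalization, other filters, a pseudocount of 1, the 6 libraries of a comparison, the replicate block, each library left out, a 2-fold threshold, a test against 1.5-fold (treat) and voom. Combining all listed genes with each of these was chosen after seeing the data. The mean chi-square of reads between libraries of a group was 2.30 to 5.32, above sampling noise. All 9 libraries were kept. Values and figures were computed with Python 3.11.15 (numpy 2.4.6, pandas 2.3.3, matplotlib 3.10.9). Groups of 3 libraries are too small for the check for single outlying samples.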

Additional observations from a re-analysis of the deposited data

How the results depend on the processing

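The number of members upregulated in ONC/Ctrl was 2 and became 1 with a mean of at least 1 RPKM, with a fold change of at least 2 or with a test against 1.5-fold, and 5 with no filter, where 6 were tested. The number downregulated in TPEN/ONC was 0 and became 2 with no filter. The number upregulated in TPEN/Ctrl was 2 and became 1 with a mean of at least 1 RPKM, a fold change of at least 2 or the test against 1.5-fold, 0 with a pseudocount of 1, and 5 with no filter. These counts did not move when a library was left out (2 to 2, 0 to 0 and 2 to 2). With all listed genes fitted, they were 5 to 5 in ONC/Ctrl, 1 to 2 in TPEN/ONC and 2 to 4 in TPEN/Ctrl without one library. The exact permutation p of the 3 groups ranged from 0.00357 to 0.0107 for Nlrp3, 0.00357 to 0.00714 for Pycard and Gsdmd, 0.1 to 0.507 for Gsdme and 0.00357 to 0.0179 for the ratio of Gsdmd to Gsdme without one library. Except for Gsdme, these permutation p-values do not allow for the listing. The log2 fold change of Gsdme in ONC/Ctrl turned to -0.12 when quantile normalization was applied to all listed genes. A pseudocount of 1 took the rise of Nlrp3 (0.43) and Pycard (0.32) and the fall of Gsdmd (-0.44) below 1.5-fold, as its construction shrinks low genes. Against a fold change of 1.5, the fall of Gsdmd did not pass (limma adjusted p = 0.399), nor did the rise of Ripk1 (0.414). The groups share replicate numbers, but the labels give no shared source. The deviations of same-numbered libraries correlated between -0.062 and 0.027, which cannot show whether such libraries share a source. With the replicate number as a block, the exact permutation p of the ratio of Gsdmd to Gsdme was 0.0556, the limma adjusted p of Pycard in TPEN/ONC was 0.0718, and the members called with all listed genes fitted were 5, 1 and 2 in the 3 comparisons. Where not stated, the cause was not tested. Nlrp3, Pycard, Gsdmd and Casp8 had 4 to 15 reads per Ctrl library, so their fold changes against Ctrl are imprecise.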
